A study of Mus musculus with 16 samples.

Results

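The cytosolic ribosomal protein genes of the mouse were examined in polyadenylated RNA from the hippocampus. They were taken by name from the table of counts. A gene counted as a member where it was annotated as protein-coding and was called Rpsa, Rplp0, Rplp1, Rplp2, or Rpl or Rps directly followed by a digit. The kinases whose names begin with Rps6k and all names with -ps (pseudogenes) were left out. This gave 86 of the 55385 genes of the table, 21856 of which were protein-coding. By name, 31 members belonged to the small subunit of the ribosome, 43 to the large subunit and 3 to its acidic stalk. The other 9 were paralogues or namesakes: Rpl3l, Rpl7l1, Rpl10l, Rpl22l1, Rpl36al, Rpl39l, Rps27l, the retrotransposed copy Rps27rt, and Rps19bp1, which encodes a binding partner of a ribosomal protein.

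The 16 libraries came from mice aged 5 months, 4 for each of 4 genotypes. The 5xFAD-Dp16 mice carried both modifications, the 5xFAD mice human transgenes with mutations of familial Alzheimer disease, and the Dp16 mice a duplicated segment of chromosome 16 that models trisomy 21. The fourth genotype was wild-type C57BL/6J. All 4 5xFAD-Dp16 mice were male, and the other 3 genotypes had 2 males and 2 females each. The 5xFAD transgenes are driven by the Thy1 promoter, which is active in neurons, so the model adds mutant protein to neurons and not to every cell type. Whether each library came from its own mouse is not spelled out in the labels, and p-values here set differences only against the spread among these libraries. The comparisons ask whether the duplication, the transgenes or both together alter the family.

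Each ribosome is built from one copy of nearly every one of these proteins, on a scaffold of ribosomal RNA. Cells keep the proteins in balance, since unpaired subunits are degraded, and the genes are among the most strongly transcribed in any tissue. Their messages carry a run of pyrimidines at the start (the terminal oligopyrimidine motif), through which mTOR signalling sets how actively they are translated. In neurons, ribosomes also serve local protein synthesis in dendrites and axons, on which lasting synaptic change depends.

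The start regions of 11 members are shown because the pyrimidine run at the start is the feature through which the family is known to be regulated together. The sequences are from RefSeq (build GRCm38.p6), run from 40 bases before the transcription start to 15 bases after it, and are written 5′ to 3′ on the coding strand. Capitals mark the longest pyrimidine run within 20 bases of the start on either side, or the first of 2 equally long ones. In Rps15, Rpl13, Rpl19, Rps27rt, Rps27l and Rpl22 the marked run ends before the start, so it is not part of the message as annotated. Where a gene has several starts in RefSeq, the one nearest to the annotated 5′ end is shown. The first 4 are the members with the highest levels per length that had an entry. The next 5 are the paralogue groups of Rps27 and Rpl22, and the last 2 were chosen after their windows were seen, for runs that span the start.
Rps15, chr10:80292391-80292445, plus strand: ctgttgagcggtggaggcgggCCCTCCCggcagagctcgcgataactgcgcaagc
Rpl13, chr8:123102310-123102364, plus strand: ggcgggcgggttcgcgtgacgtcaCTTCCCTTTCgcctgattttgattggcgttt
Rps21, chr2:180257339-180257393, plus strand: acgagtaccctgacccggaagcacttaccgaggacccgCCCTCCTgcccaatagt
Rpl19, chr11:98026670-98026724, plus strand: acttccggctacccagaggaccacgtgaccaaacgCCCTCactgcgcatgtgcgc
Rps27, chr3:90213634-90213688, minus strand: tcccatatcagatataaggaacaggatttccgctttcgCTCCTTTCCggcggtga
Rps27rt, chr9:114982725-114982779, minus strand: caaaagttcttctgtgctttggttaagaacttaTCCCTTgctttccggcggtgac
Rps27l, chr9:66946046-66946100, plus strand: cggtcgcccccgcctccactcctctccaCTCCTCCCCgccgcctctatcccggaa
Rpl22, chr4:152325686-152325740, plus strand: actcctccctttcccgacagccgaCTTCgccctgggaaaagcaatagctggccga
Rpl22l1, chr3:28805468-28805522, plus strand: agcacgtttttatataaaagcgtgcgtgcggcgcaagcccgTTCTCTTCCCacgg
Rps6, chr4:86857353-86857407, minus strand: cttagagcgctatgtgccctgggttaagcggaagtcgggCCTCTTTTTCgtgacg
Rpl28, chr7:4792925-4792979, plus strand: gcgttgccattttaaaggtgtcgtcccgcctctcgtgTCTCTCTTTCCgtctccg

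Entries were found for 66 of the 86 members, with 78 starts in all. In the shares that follow, a gene counts if any of its starts has a match, so a member can count through a start other than the one shown, as Rpl19 does. A pyrimidine run of 8 or more bases (letters C and T only, coding strand) lay within 20 bases of the start in 30 of the 66 members, which is 45.5%, against 18.4% of all 27025 genes with an entry. Such a run can lie wholly ahead of the start, so these shares do not count messages that carry the motif. The letters CTTTCC on the coding strand lay in the same window in 12 members (18.2%), against 2.30% of all genes, and a CTTTCC match can be part of such a run. CCGGAAG, a motif of ETS factors, occurred on either strand of the 300 bases in 26 members (39.4%), against 9.93% of all genes. A match here is a description of the letters and no measure of binding. The windows of Rps27 and its retrotransposed copy Rps27rt, which lies on another chromosome, shared a stretch of 14 bases, ctttccggcggtga. In Rps27 the marked run crosses the start, and in Rps27rt the marked run lies ahead of the shared stretch, which opens with an equally long one.

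Library totals ranged from 15838097 to 25037769 counts. Thy1 and App checked the genotype labels. Thy1, whose promoter drives the transgenes, had 2456, 3083, 1862 and 2072 CPM (counts scaled to library size and composition) in 5xFAD-Dp16 replicates 1 to 4, 2392, 2082, 2418 and 1639 in 5xFAD, 809, 896, 929 and 796 in Dp16 and 916, 761, 807 and 774 in wild-type. App, which lies in the duplicated segment, had 3136, 3223, 2637 and 2849 CPM in 5xFAD-Dp16, 1874, 1888, 1902 and 1645 in 5xFAD, 3134, 3142, 3257 and 3023 in Dp16 and 2258, 2006, 2151 and 1715 in wild-type. Both genes separated the genotypes without overlap in the direction the labels give. Libraries also differed in genes of neighbouring brain regions. Of 17 genes of midbrain and hypothalamus, 10 could be tested, and the 17 summed to 11.4 to 98.3 CPM in 5xFAD-Dp16, 15.6 to 338 in 5xFAD, 7.87 to 23.5 in Dp16 and 11.8 to 357 in wild-type. The high values were 5xFAD-Dp16 replicate 3, 5xFAD replicate 2 and wild-type replicate 4. Slc6a3, the dopamine transporter of midbrain neurons, was at 143 CPM in 5xFAD replicate 2, at 14.8 in 5xFAD-Dp16 replicate 3 and at 0.789 or less in the other 14 libraries, with 0 counts in 5xFAD replicate 1. The 12 thalamus genes summed to 255 to 381 CPM in 5xFAD-Dp16, 287 to 738 in 5xFAD, 248 to 332 in Dp16 and 270 to 435 in wild-type, with the highest sum in 5xFAD replicate 4. Tcf7l2 among them, a regulator of thalamic neurons, had 68.0 CPM in that library and 6.34 to 31.6 in the other 15. Genes of CA1 pyramidal neurons, which mark the labelled tissue, were present in every library. Of 8 listed, 7 could be tested and Nov was not found with counts under that name, and their summed level was 406 to 896 CPM in 5xFAD-Dp16, 428 to 725 in 5xFAD, 737 to 929 in Dp16 and 396 to 948 in wild-type.

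Levels between genes were compared per length, in the deposited RPKM (counts scaled to gene length and library size). The median over the 86 members of the mean RPKM of 16 libraries was 173, and over all tested protein-coding genes it was 6.45. Of the 100 protein-coding genes with the highest RPKM, 11 were members. Rplp1, a stalk protein that helps to recruit elongation factors, had the highest level at 1119 ± 195 RPKM (SD over 16 libraries) and ranked 16 among protein-coding genes. Rps29 (579.8 ± 89.3), Rps15 (531 ± 139.6), Rpl23a (447 ± 89.2), Rpl13 (377 ± 77.7) and Rps21 (375 ± 114) followed. Of the 77 members that were neither paralogue nor namesake, 60 lay between 100 and 400 RPKM, 13 below and 4 above. The levels of these 77 spanned 22.4 RPKM (Rps15a) to 1119 RPKM (Rplp1). This order depends on the gene length used in the scaling. Rps15a, with a length of 5395 bases, averaged 120 CPM over the 16 libraries. Rps18, with a length of 560 bases, averaged 113 CPM and 203 RPKM, so a low RPKM need not mean few counts. In the order of mean levels, 84 pairs of neighbours could be compared. The ranges over the libraries stood apart in 2 of them, Rplp1 above Rps29 and Rps27l above Rpl3l, and overlapped in all others. The 3 stalk genes stood at 1119 ± 195 (Rplp1), 193 ± 37.0 (Rplp2) and 174 ± 35.4 RPKM (Rplp0).

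Most paralogues stood below their partners. Rps27l, which p53 induces in other tissues, had the lowest level of the tested members at 9.80 ± 4.38 RPKM, and Rps27rt had 14.04 RPKM, against 260.5 ± 89.4 for Rps27 itself. Rpl7l1 (13.7 ± 2.72 RPKM) and Rpl36al (14.8 ± 3.69 RPKM) stood below Rpl7 (187 ± 46.2 RPKM) and Rpl36a (187 ± 46.0 RPKM). Rpl22l1 and Rpl22 were the exception, at 41.4 ± 15.7 RPKM and 41.3 ± 5.83 RPKM. Rpl3l, a paralogue of Rpl3 in heart and skeletal muscle, had 54 counts over all 16 libraries. Rpl39l and Rpl10l, whose expression is known from male germ cells, had 28 and 0 counts. Their partners had 334 RPKM (Rpl3), 79.3 RPKM (Rpl39) and 177 RPKM (Rpl10). Rpl3l, Rpl39l and Rpl10l did not pass the filter on low counts, which left 83 members for all tests. Members have near-identical processed pseudogenes, and a read that matches both can be counted for either or for neither, so a member's level is uncertain. The 311 genes of the table with names of ribosomal protein pseudogenes (-ps) held 0.551 to 0.632% as many counts as the members in each library, and 206 of them had a count.

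**Figure D1:**
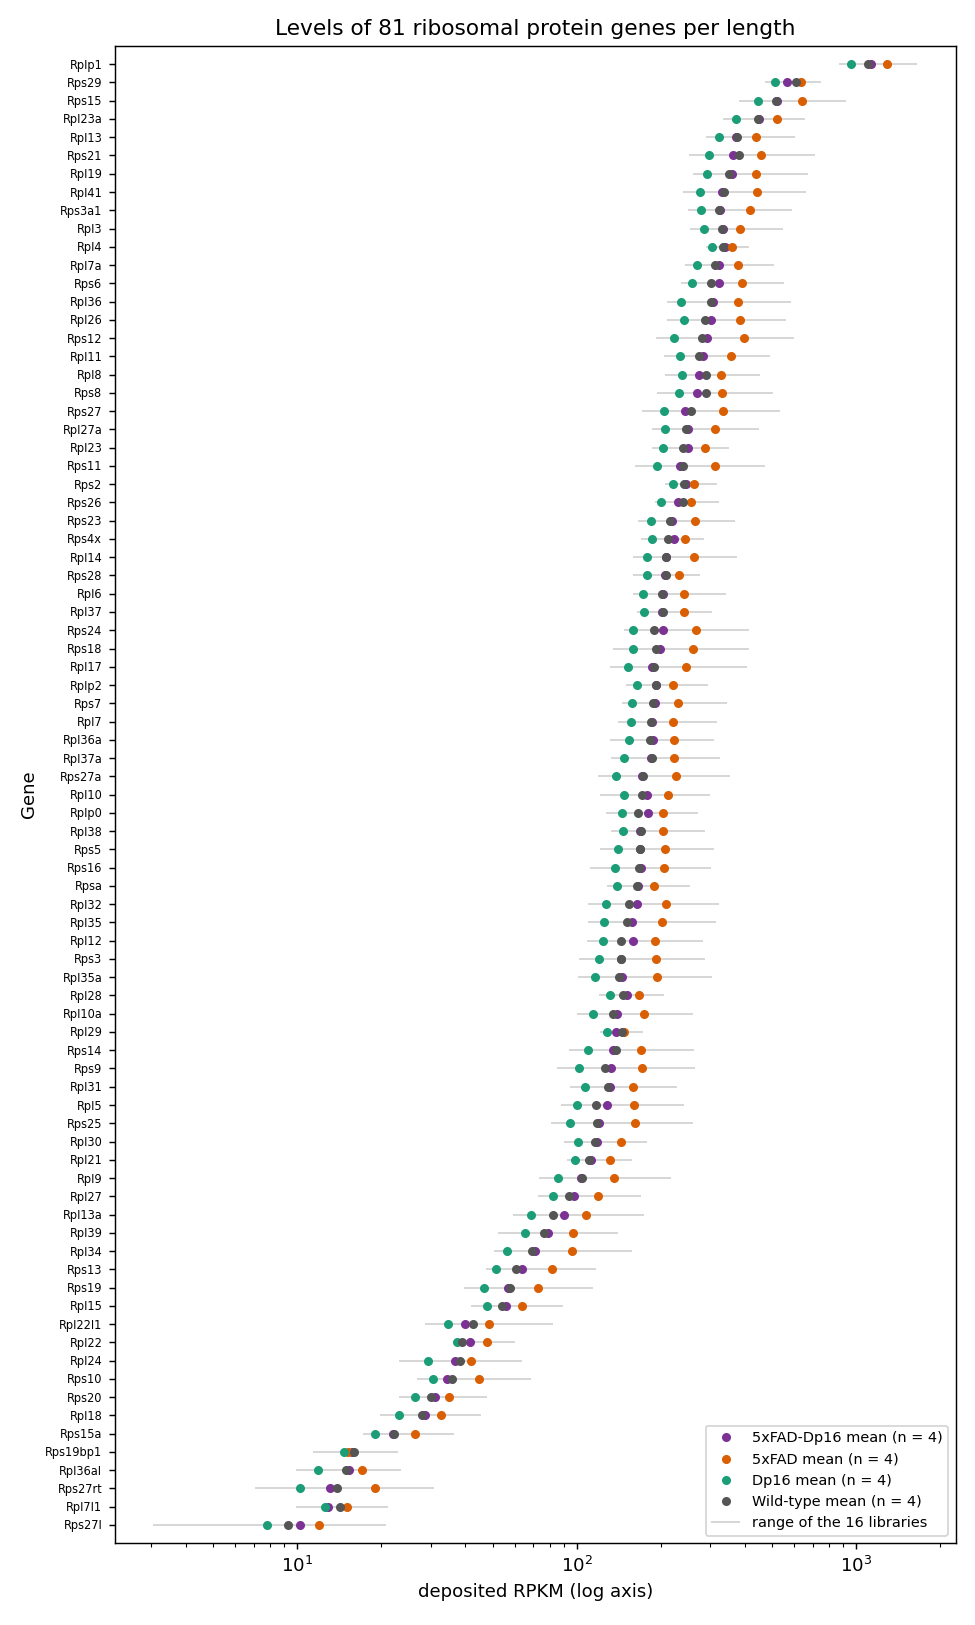
Deposited RPKM on a log axis for 81 of the 83 tested members, ordered by their mean over 16 libraries. Points are the mean of each genotype (n = 4) and grey lines span the 16 libraries: Rplp1 stands alone at the top with a mean of 1119 RPKM, and Rps27l is lowest at 9.80 RPKM.

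The share of the counts that the family took up was highest on average in 5xFAD and lowest in Dp16, with overlapping libraries in all pairs of genotypes but that one, and 1 library of 5xFAD stood apart. The share of counts in the 86 genes was 1.39, 1.26, 1.93 and 1.63% in 5xFAD-Dp16 replicates 1 to 4, 1.53, 1.72, 1.61 and 2.65% in 5xFAD, 1.27, 1.29, 1.16 and 1.48% in Dp16 and 1.36, 1.46, 1.28 and 2.02% in wild-type. The means were 1.55 ± 0.296% in 5xFAD-Dp16, 1.88 ± 0.519% in 5xFAD, 1.30 ± 0.132% in Dp16 and 1.53 ± 0.331% in wild-type, each ± SD over 4 libraries. The highest share of Dp16 lay above the lowest of each other genotype except 5xFAD, and 5xFAD replicate 4 stood above all other libraries. In that library the 95% Wilson interval of the share was 2.64 to 2.66%, which covers counting error only. Without 5xFAD replicate 4 the 5xFAD mean was 1.62%, and without wild-type replicate 4 the wild-type mean was 1.37%. A share is relative to the rest of the library, and in bulk tissue fewer cells of a type and less RNA per cell cannot be told apart.

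**Figure D2:**
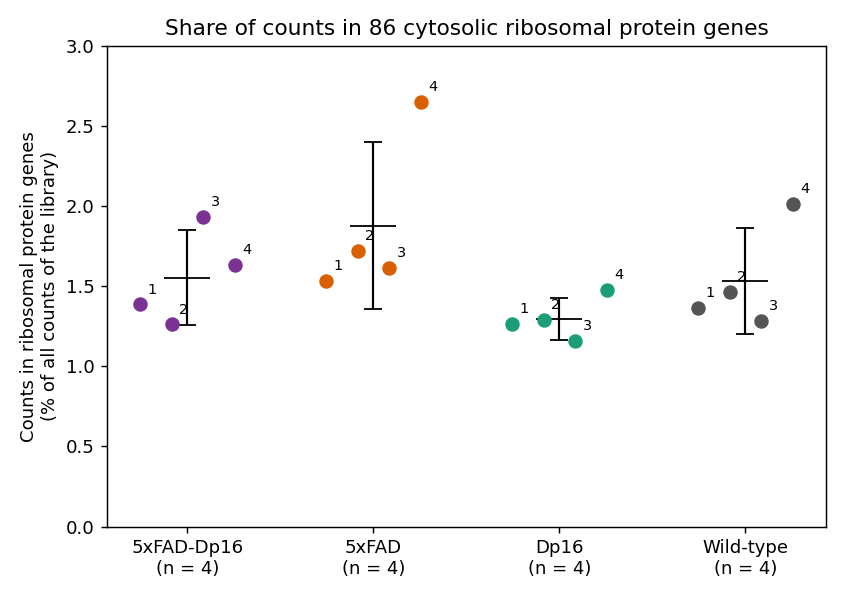
Share of all counts of a library that fell in the 86 cytosolic ribosomal protein genes, in percent, by genotype. Points are libraries with their replicate number, and bars are the mean ± SD (n = 4). 5xFAD replicate 4 stands at 2.65%, and the 4 Dp16 libraries lie between 1.16 and 1.48%.

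Within a library the members moved as a block. Relative to the wild-type mean, the median log2 CPM of the 83 tested members was -0.11, -0.16, 0.30 and 0.08 in 5xFAD-Dp16 replicates 1 to 4, 0.04, 0.13, 0.072 and 0.78 in 5xFAD, -0.20, -0.19, -0.28 and -0.06 in Dp16 and -0.056, -0.068, -0.16 and 0.31 in wild-type. The 4 Dp16 libraries were all below the wild-type mean, the 4 5xFAD libraries all above it, and 5xFAD-Dp16 lay on both sides. Dp16 overlapped wild-type and 5xFAD-Dp16, and 5xFAD overlapped 5xFAD-Dp16 and wild-type, while 5xFAD and Dp16 did not overlap. Of the 83 members, 82 had their highest CPM of all 16 libraries in 5xFAD replicate 4 (98.8%, against 20.9% of all 16684 tested genes). The remaining member was Rps26, with 179 CPM in 5xFAD replicate 4 and its highest value, 203 CPM, in wild-type replicate 4. Dp16 replicate 3 was the lowest library for 62 members (74.7%, against 8.21% of all tested genes).

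**Figure D3:**
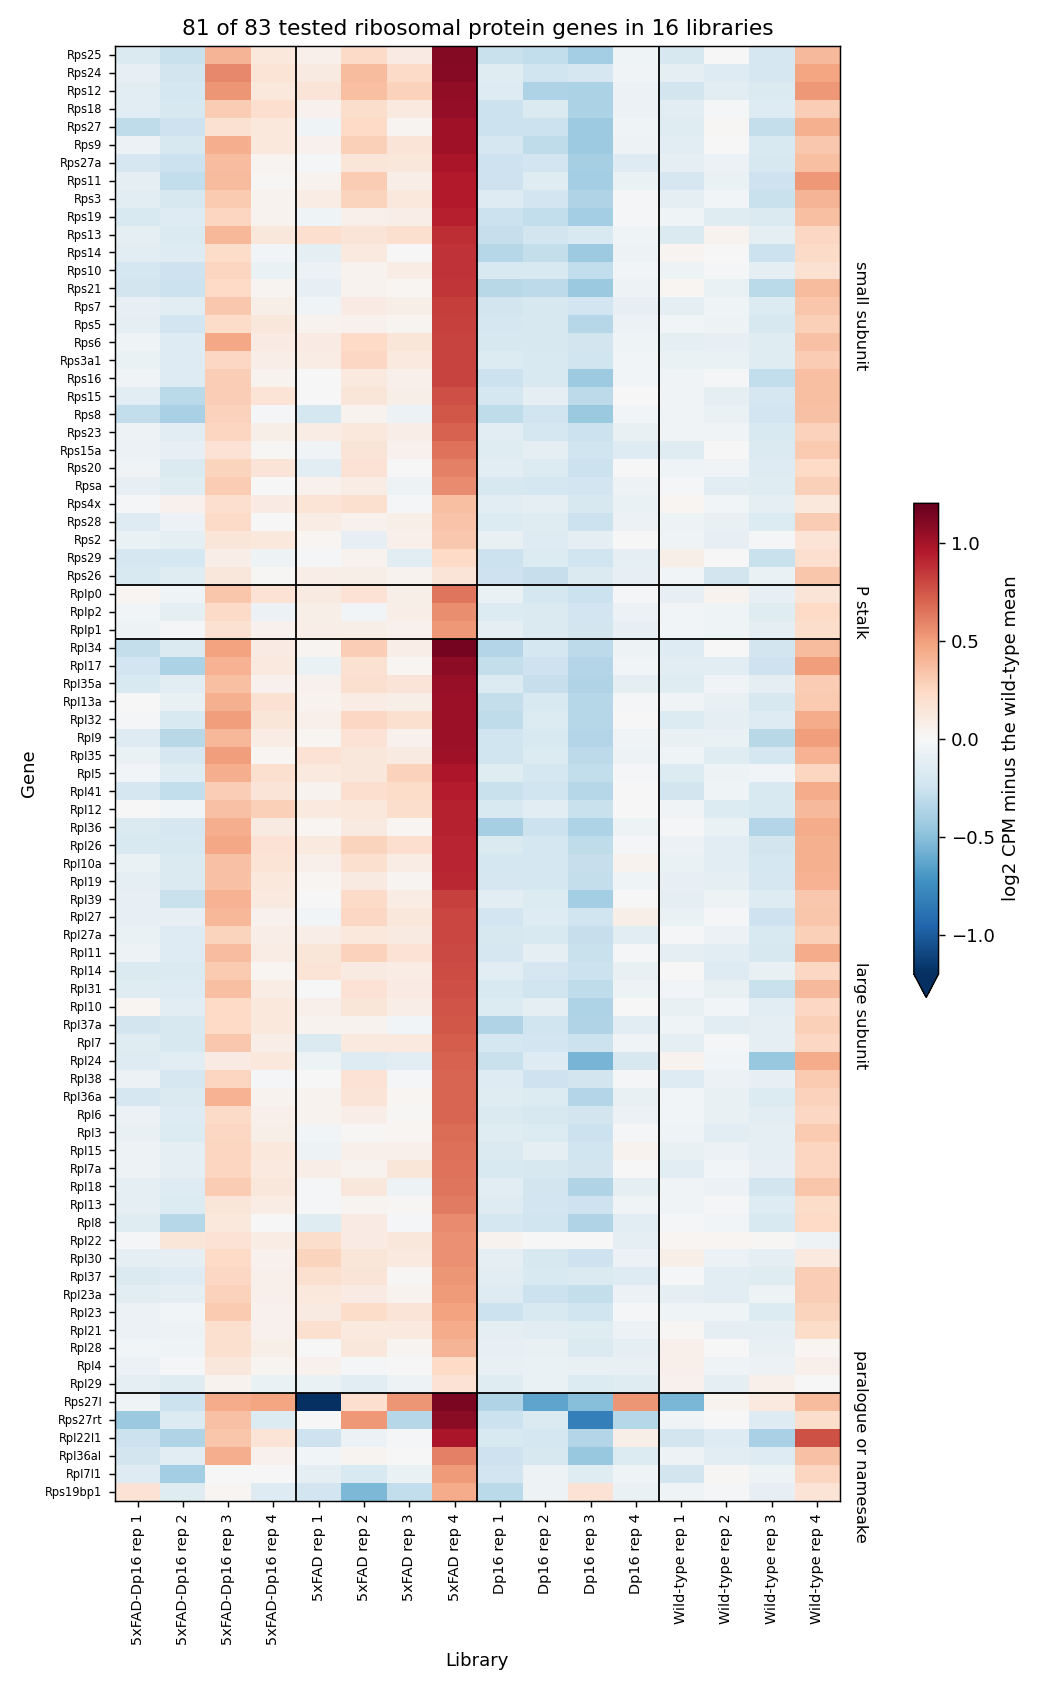
Log2 CPM minus the wild-type mean for 81 of the 83 tested members (rows, grouped by role) in the 16 libraries (columns, grouped by genotype), where Rps27l in 5xFAD replicate 1 lies beyond the low end of the colour scale. 5xFAD replicate 4 is high throughout, with a median of 0.78, and Dp16 replicate 3 is low, with a median of -0.28.

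Levels of the members relative to one another varied less than their levels in CPM. The SD over the 16 libraries of a member's log2 CPM had a median of 0.28, and after the family median of each library was subtracted it was 0.084. Variation between replicates, as the biological coefficient of variation, had a median of 0.176 over the members, against 0.131 over 6705 other genes of like abundance. The SD relative to the family exceeded 0.2 in 4 members, all of which are named here after their values were seen: Rps27l (0.50), Rps19bp1 (0.27), Rps27rt (0.24) and Rpl29 (0.21).

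Several other gene groups, though not all of those listed, were high and low in the same libraries. In 5xFAD replicate 4, the median log2 difference from the wild-type mean was 0.65 for the respiratory chain (79 of 81 genes tested), 0.58 for the proteasome (31 of 31) and 0.56 for mitochondrial ribosomal proteins (77 of 78). Oligodendrocyte genes (12 of 12 tested) had medians of 0.78 in 5xFAD-Dp16 replicate 3, 0.47 and 0.50 in 5xFAD replicates 2 and 4, and 0.26 in wild-type replicate 4. Their summed level was 5493 to 9321 CPM in 5xFAD-Dp16, 5542 to 7630.0 in 5xFAD, 4980.0 to 5852 in Dp16 and 4426 to 6582 in wild-type. Choroid plexus genes (12 of 12 tested) summed to 463 to 6329 CPM in 5xFAD-Dp16, 359 to 7863 in 5xFAD, 269.6 to 5025 in Dp16 and 267.5 to 9220.0 in wild-type. They did not follow the family, since their lowest sum was in wild-type replicate 4 and their highest in wild-type replicate 2. Among the translation lists, initiation factors (0.34), elongation factors (0.32) and ribosome biogenesis genes (0.16) had lower medians in 5xFAD replicate 4. Gene length, as used in the RPKM scaling, went with the same libraries. It is 1 length per gene and need not be the length of the transcript, as for Rps15a at 5395 bases. Among protein-coding genes outside the family, the 504 of under 1000 bases had a median of 0.32 in 5xFAD-Dp16 replicate 3, 0.59 in 5xFAD replicate 4, -0.18 in Dp16 replicate 3 and 0.29 in wild-type replicate 4. The 1113 genes of 8000 bases or more had -0.25 in 5xFAD-Dp16 replicate 3, -0.28 in 5xFAD replicate 4, 0.19 in Dp16 replicate 3 and -0.24 in wild-type replicate 4. Members were short by this measure, with a median length of 975 bases. In 5xFAD replicate 4 the 43 members of under 1000 bases had a median of 0.80, and the 40 longer ones 0.71. The part of gene or transcript length, of RNA quality and of neighbouring tissue in the family's differences was not tested. The family's median in each genotype comparison is therefore also given without the 4 libraries high in midbrain or thalamus genes (5xFAD-Dp16 replicate 3, 5xFAD replicates 2 and 4, and wild-type replicate 4), a choice made after seeing the data. In that order, the family's own medians in these libraries were 0.30, 0.13, 0.78 and 0.31, the highest of the 16. Leaving them out thus also removes the family's highest values, so it does not separate neighbouring tissue from the family's own level.

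**Figure D4:**
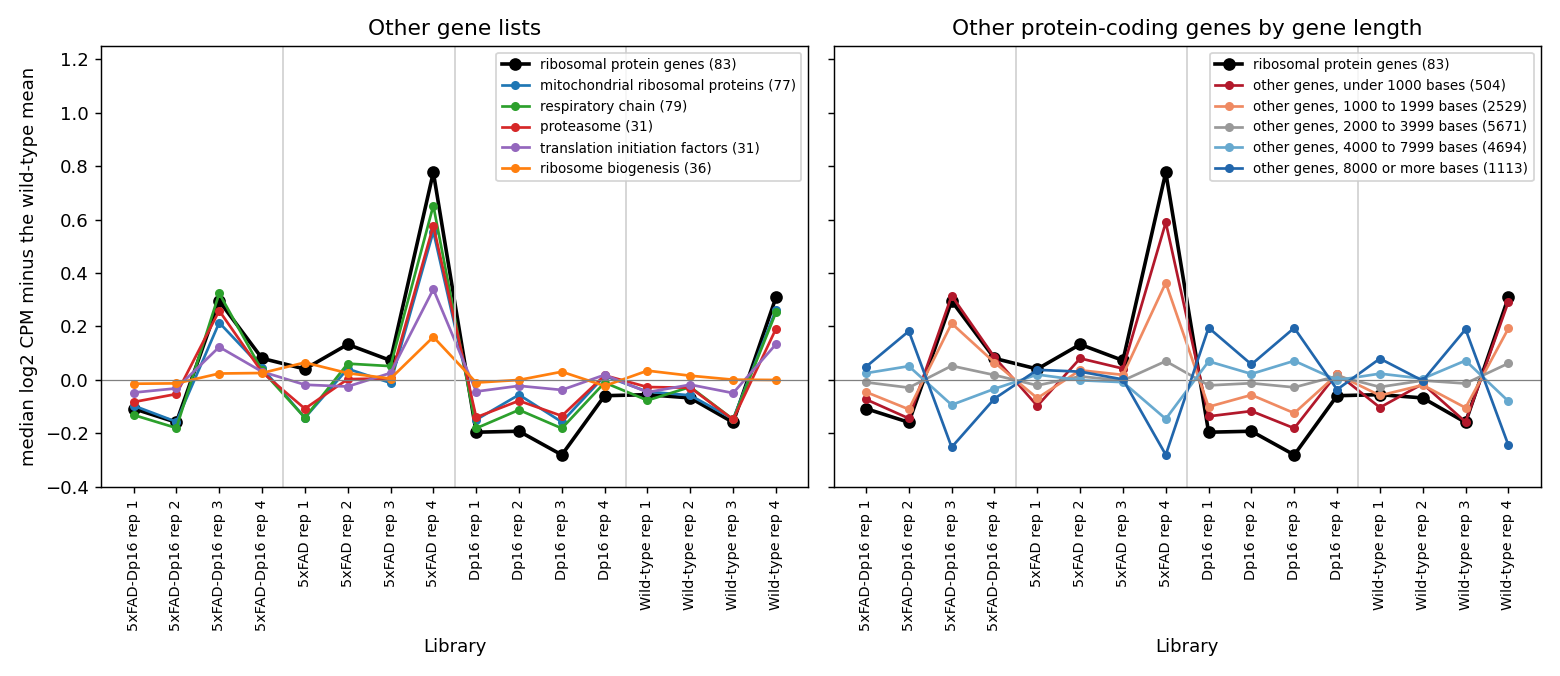
Median log2 difference from the wild-type mean in each of the 16 libraries, for the cytosolic ribosomal protein genes beside other gene lists (first panel) and beside other protein-coding genes by gene length (second panel). 5xFAD replicate 4 is high in the family (0.78), the respiratory chain (0.65) and other genes under 1000 bases (0.59).

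No member passed an adjusted p of 0.05 in any of the 7 comparisons, by edgeR's quasi-likelihood test or by DESeq2. Both used Benjamini-Hochberg adjustment, in edgeR over all 16684 genes tested and in DESeq2 over the genes left by its default filters. Values are fitted log2 fold changes, with the standard error (SE) for named genes. The comparisons of Dp16, 5xFAD and 5xFAD-Dp16 with wild-type share the wild-type libraries, and those of 5xFAD-Dp16 with its parents share the 5xFAD-Dp16 libraries, so their values are set side by side and are not independent.

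In 5xFAD against wild-type, 81 of the 83 members had positive values and the median was 0.27, against 0.020 over all tested genes. None was called (0.971% of all genes were), and 8 had an unadjusted p under 0.05, all with positive values, among them Rpl22, Rpl30, Rps13, Rps12, Rpl5, Rps24 and Rps3a1. Of all genes, 8.85% had such a p and 5.98% had it with a positive value. DESeq2 gave 16 members (9.79% of all genes). This count depended on the libraries and the model: by edgeR it was 56 without wild-type replicate 4 (17.1% of all genes), 34 without 5xFAD replicate 1 (13.5%), 2 without 5xFAD replicate 4 (6.88%), 1 without wild-type replicate 3 (7.11%) and 2 to 28 without any other single library. It was 58 among males only (19.6%) and 0 with only the libraries of both genotypes in the fit (5.26%). Without the 4 libraries high in midbrain or thalamus genes it was 21 (9.27%). Small-subunit members had a median of 0.27 (31 of 31 positive), large-subunit members 0.28 (42 of 43) and the stalk genes 0.19 (3 of 3).

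The smallest p belonged to Rpl22, an RNA-binding protein of the large subunit. It had 92.8, 85.8, 87.7 and 117 CPM in 5xFAD replicates 1 to 4, against 81.4, 81.1, 80.8 and 76.8 in wild-type. Every 5xFAD library lay above every wild-type library (log2 0.26 ± 0.092 SE, edgeR adjusted p = 0.363), and it was the only member without overlap (3.18% of all genes were higher and 1.35% lower without overlap). Rpl30, a large-subunit protein, had 155, 143, 140.2 and 189 CPM in 5xFAD replicates 1 to 4, against 136, 123, 119 and 141 in wild-type (log2 0.28 ± 0.11 SE, edgeR adjusted p = 0.468). Its wild-type replicate 4 lay above the lowest 5xFAD library. Rps13, a small-subunit protein, had 95.4, 92.6, 94.9 and 154 CPM in 5xFAD replicates 1 to 4, against 73.7, 85.3, 76.3 and 98.8 in wild-type (log2 0.38 ± 0.17 SE, edgeR adjusted p = 0.526). Rps12 and Rps24, also of the small subunit, had the largest positive values. For Rps12 these were 194, 223, 212 and 364 CPM in 5xFAD replicates 1 to 4, against 149.6, 159, 155 and 249.8 in wild-type (log2 0.49 ± 0.22 SE, edgeR adjusted p = 0.536). For Rps24 they were 383, 462, 417 and 761 CPM in 5xFAD replicates 1 to 4, against 327, 320.1, 309.8 and 494 in wild-type (log2 0.48 ± 0.22 SE, edgeR adjusted p = 0.556). In Rps13, Rps12 and Rps24, replicate 4 was the highest of its genotype in both groups, and the groups overlapped through wild-type replicate 4.

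The negative values were those of Rps19bp1 (log2 -0.13 ± 0.17 SE) and Rpl29 (log2 -0.024 ± 0.079 SE). Rps19bp1 encodes a protein that binds Rps19 and is no ribosomal protein itself. It had 11.3, 9.13, 10.8 and 18.1 CPM in 5xFAD replicates 1 to 4, against 12.9, 13.1, 12.4 and 14.9 in wild-type, and 3 of 4 5xFAD libraries lay below all wild-type libraries while replicate 4 lay above them. The family's median was 0.051 without 5xFAD replicate 4, with 64 of 83 values positive. Without the 4 libraries high in midbrain or thalamus genes it was 0.15 (76 positive). The 12 thalamus genes, of which 11 had positive values and none was called, had a median of 0.71 in this comparison, and 10 of 12 microglia genes were called higher. Oligodendrocyte genes had a median of 0.32 (12 of 12 positive) and CA1 genes one of -0.26 (0 of 7 positive), with none called. The part of these cell types in the family's values was not tested.

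In Dp16 against wild-type, all 83 members had negative values. The median was -0.19, against -0.013 over all tested genes, and values ran from -0.39 (Rps27rt) to -0.017 (Rpl22). None was called (0.0839% of all genes were), and 1 member had an unadjusted p under 0.05, with a negative value, as did 1 by DESeq2 (3.58% of all genes). With only the libraries of both genotypes in the fit 9 had one (4.66% of all genes), and without 5xFAD replicate 4 it was 6 (3.99%). Of all genes, 3.31% had such a p and 1.81% had it with a negative value. The medians were -0.20 for the small subunit, -0.18 for the large subunit and -0.16 for the stalk.

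Rps26, of the small subunit, had 136, 133, 142 and 150.0 CPM in Dp16 replicates 1 to 4, against 157, 138, 153 and 203 in wild-type (log2 -0.21 ± 0.11 SE), and Rps29 had 195, 208, 199 and 217 CPM in Dp16 replicates 1 to 4, against 245, 234, 194 and 269.5 in wild-type (log2 -0.20 ± 0.11 SE). In both, the groups overlapped and wild-type replicate 4 was highest. Rpl37a had 79.8, 86.8, 79.8 and 93.3 CPM in Dp16 replicates 1 to 4, against 98.9, 93.7, 95.1 and 125 in wild-type (log2 -0.28 ± 0.17 SE), and all 4 Dp16 libraries lay below all wild-type ones. The same separation held for Rpl4, Rpl36al and Rps27rt, which makes 4 of 83 members. Of all genes, 1.55% were lower and 1.37% higher in this way. Rps27rt had 4.27, 4.52, 2.85 and 4.03 CPM in Dp16 replicates 1 to 4, against 4.97, 5.11, 4.59 and 5.93 in wild-type (log2 -0.39 ± 0.27 SE), levels of few counts. Without wild-type replicate 4 the family's median was -0.064, and without the 4 libraries high in midbrain or thalamus genes it was -0.090, with 2 positive values. The CA1 genes had a median of 0.22 in this comparison (7 of 7 positive) and the dentate granule genes one of 0.14 (8 of 8). Choroid plexus genes had a median of -0.87 (0 of 12 positive) and midbrain and hypothalamus genes one of -1.41 (1 of 10). None of these genes was called, and their part in the family's values was not tested.

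In 5xFAD-Dp16 against wild-type the family's median was 0.027, against -0.0043 over all genes, with 57 positive and 26 negative values between -0.17 and 0.15. None was called (1.01% of all genes were), none had an unadjusted p under 0.05 by edgeR or DESeq2 (6.38% of all genes by edgeR), and none was without overlap (3.08% of all genes were higher and 1.29% lower). Rplp0, the base of the stalk, had the largest value, with 227, 217, 281 and 252 CPM in 5xFAD-Dp16 replicates 1 to 4, against 209.9, 230.0, 209.6 and 249 in wild-type (log2 0.15 ± 0.14 SE). Rpl7l1, a paralogue of Rpl7, had the lowest, with 39.5, 33.2, 44.2 and 44.2 CPM in 5xFAD-Dp16 replicates 1 to 4, against 37.8, 44.5, 42.3 and 52.7 in wild-type (log2 -0.17 ± 0.16 SE). The groups overlapped in both genes. Rpl29 (log2 -0.12 ± 0.085 SE), Rps4x (log2 0.11 ± 0.10 SE), Rps27l (log2 0.13 ± 0.45 SE) and Rps19bp1 (log2 -0.13 ± 0.19 SE) were the other members with small p or large values. Without 5xFAD-Dp16 replicate 3 the median was -0.065, without wild-type replicate 4 it was 0.11, and without the 4 libraries high in midbrain or thalamus genes 0.074 (74 positive). In this comparison 7 of 12 microglia genes were called higher, and the oligodendrocyte (0.38) and choroid plexus genes (0.38) had 12 of 12 positive values each, with none called. Since all 5xFAD-Dp16 mice were male, the fit took the effect of sex from the other genotypes. Among males alone the median was 0.15 (81 positive), and with only the libraries of both genotypes in the fit it was 0.17 (82 positive).

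In 5xFAD-Dp16 against 5xFAD all 83 values were negative, with a median of -0.24 against -0.0028 over all genes. None was called (0.0539% of all genes were), none had an unadjusted p under 0.05 by edgeR (3.28% of all genes) and 2 had by DESeq2 (3.63% of all genes), and no member was without overlap (1.33% of all genes were higher and 1.28% lower). Rpl30 had 120.1, 120.0, 153 and 134 CPM in 5xFAD-Dp16 replicates 1 to 4, against 155, 143, 140.2 and 189 in 5xFAD (log2 -0.25 ± 0.12 SE, edgeR adjusted p = 0.9999). Rps10, of the small subunit, had 37.6, 36.4, 51.9 and 41.2 CPM in 5xFAD-Dp16 replicates 1 to 4, against 41.3, 44.7, 46.3 and 79.3 in 5xFAD (log2 -0.38 ± 0.19 SE), and Rpl14, of the large subunit, had 184, 184, 259 and 211 CPM in 5xFAD-Dp16 replicates 1 to 4, against 232, 224, 221 and 358 in 5xFAD (log2 -0.32 ± 0.17 SE). 5xFAD-Dp16 replicate 3 lay among the 5xFAD libraries in all 3 genes. Rpl22 (log2 -0.20 ± 0.10 SE), Rpl34 (log2 -0.42 ± 0.24 SE) and Rps27rt (log2 -0.49 ± 0.29 SE) were the others named by p or size. Without 5xFAD replicate 4 the median was 0.044, with 68 positive values, and without the 4 libraries high in midbrain or thalamus genes it was -0.078 (11 positive). The count of members with an unadjusted p under 0.05 was 41 among males only (7.26% of all genes, median -0.41). It was 22 with only the libraries of both genotypes in the fit (4.77%, median -0.43), 22 without 5xFAD-Dp16 replicate 3 (5.34%, median -0.35) and 0 to 10 without any other single library. The thalamus genes had a median of -0.58 in this comparison (0 of 12 positive, none called).

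In 5xFAD-Dp16 against Dp16, 81 of 83 values were positive, with a median of 0.23 against 0.020 over all genes. None was called (0.845% of all genes were), and Rps4x alone had an unadjusted p under 0.05, while DESeq2 gave 3 members (9.16% of all genes). By edgeR it was 56 without 5xFAD replicate 4 (12.2% of all genes) and 17 with only the libraries of both genotypes in the fit (10.2%). Without the 4 libraries high in midbrain or thalamus genes it was 18 (8.61%). Of all genes, 8.57% had such a p and 6.44% had it with a positive value. Rps4x, the X-linked form of a small-subunit protein, had 202, 213, 236 and 219 CPM in 5xFAD-Dp16 replicates 1 to 4, against 187, 189, 179 and 194 in Dp16 (log2 0.24 ± 0.10 SE, edgeR adjusted p = 0.514). Every 5xFAD-Dp16 library lay above every Dp16 library. This separation was found in 8 of 83 members, among them Rplp1, Rps15a, Rpl28, Rpl4, Rpl21 and Rpl24. Of all genes, 3.71% were higher and 2.05% lower in this way. Rplp1 had 522, 538, 619 and 566 CPM in 5xFAD-Dp16 replicates 1 to 4, against 505, 483, 467 and 511 in Dp16 (log2 0.20 ± 0.13 SE). Rpl23 (log2 0.27 ± 0.13 SE), Rplp0 (log2 0.29 ± 0.14 SE), Rpl23a (log2 0.25 ± 0.14 SE), Rps12 (log2 0.39 ± 0.24 SE) and Rps9 (log2 0.36 ± 0.22 SE) had positive values with overlap, and Rps19bp1 (log2 -0.056 ± 0.18 SE) and Rpl7l1 (log2 -0.035 ± 0.16 SE) the negative ones. Without 5xFAD-Dp16 replicate 3 the median was 0.13, and without the 4 libraries high in midbrain or thalamus genes 0.16. In this comparison 9 of 12 microglia genes were called higher. Oligodendrocyte genes had a median of 0.43 (12 of 12 positive), choroid plexus genes 1.36 (12 of 12), midbrain and hypothalamus genes 2.64 (10 of 10) and CA1 genes -0.42 (0 of 7), with none called. Their part in the family's values was not tested.

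The interaction asks whether the transgenes act differently with and without the duplication. Its median over the family was -0.051, with 25 positive values, and none of the members or of all 16684 genes was called by edgeR or DESeq2; no member had an unadjusted p under 0.05 by either (1.99% of all genes by edgeR). Without 5xFAD replicate 4 the median was 0.24 (82 positive), without wild-type replicate 4 it was -0.21, and without the 4 libraries high in midbrain or thalamus genes 0.0053. Among males only it was -0.28, with 79 negative values. Between females and males the median was 0.0039, with 43 positive and 40 negative values, none called (0.048% of all genes were) and none with an unadjusted p under 0.05 by edgeR or DESeq2 (5.84% of all genes by edgeR). The 4 X-linked members had values of 0.046 (Rps4x), 0.009 (Rpl10), 0.015 (Rpl36a) and 0.036 (Rpl39). Eif2s3x, an X-linked initiation factor that escapes X inactivation, was called higher in females than in males (log2 0.62, edgeR adjusted p = 0.00474).

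**Figure D5:**
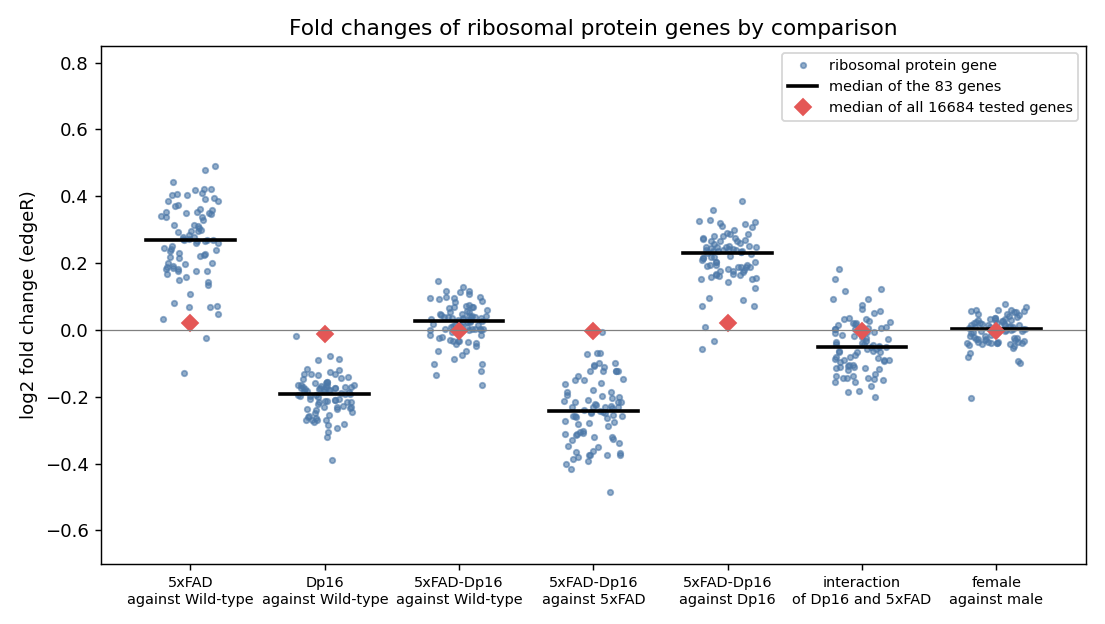
Fitted log2 fold changes of the 83 tested members in the 7 comparisons (points), their median (black line) and the median of all 16684 tested genes (red diamond). The medians are 0.27 in 5xFAD against wild-type, -0.19 in Dp16 against wild-type and 0.027 in 5xFAD-Dp16 against wild-type, and no point passed the test.

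Several members with other known roles had positive values in 5xFAD against wild-type and negative ones in Dp16 against wild-type. So did most of the family, with 81 of 83 members positive in the first comparison and all 83 negative in the second. Rpl5 and Rpl11, which bind the 5S ribosomal RNA and restrain Mdm2 when ribosome assembly fails, had log2 0.41 ± 0.18 SE and log2 0.35 ± 0.17 SE in 5xFAD against wild-type. In Dp16 against wild-type they had log2 -0.18 ± 0.18 SE and log2 -0.17 ± 0.17 SE. Rps19, which is mutated in Diamond-Blackfan anaemia, had 93.0, 100.5, 102 and 185 CPM in 5xFAD replicates 1 to 4, against 93.5, 87.6, 85.6 and 124 in wild-type (log2 0.29 ± 0.20 SE). Rpl10a, used to tag ribosomes in mice, averaged 115 ± 19.4 CPM in 5xFAD-Dp16, 139.6 ± 43.7 in 5xFAD, 97.5 ± 9.78 in Dp16 and 111 ± 24.0 in wild-type (± SD over 4 libraries). Rpl38, needed in the mouse embryo for translation of Hox messages, averaged 90.8 ± 12.6 CPM in 5xFAD-Dp16, 107 ± 27.4 in 5xFAD, 81.3 ± 5.93 in Dp16 and 91.4 ± 14.4 in wild-type. Rps25 (5xFAD against wild-type 0.42, Dp16 against wild-type -0.27) and Rpsa, also known as the laminin receptor (0.18 and -0.18), did likewise. None of these passed the test.

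The duplicated segment holds none of the members. The segment runs from Lipi to Zbtb21 (GRCm38 chr16:75540514-97962622), and the 86 genes lie on 19 chromosomes. On chromosome 16 outside it are Rpl39l (chr16:10170226-10174911), Rpl35a (chr16:33056453-33060189) and Rpl24 (chr16:55966275-55971435). Rpl35a had 102, 94.3, 89.1 and 106 CPM in Dp16 replicates 1 to 4, against 103, 111, 105 and 141 in wild-type (log2 -0.24 ± 0.20 SE). Rpl24, whose mutation causes the Belly spot and tail mouse, had 20.7, 22.3, 16.9 and 21.8 CPM in Dp16 replicates 1 to 4, against 25.6, 24.4, 18.2 and 33.9 in wild-type (log2 -0.32 ± 0.20 SE). Both genes overlapped between the groups and had negative values, as did the other 81 tested members. Of related genes, the segment holds Mrpl39 and Mrps6 of the mitochondrial ribosome and Atp5j and Atp5o of ATP synthase. Their values in 5xFAD-Dp16 against wild-type were 0.57 ± 0.11 SE for Mrpl39 (edgeR adjusted p = 0.0171, the only one of the 4 that passed), 0.66 for Mrps6, 0.57 for Atp5j and 0.60 for Atp5o. In Dp16 against wild-type they were 0.47 for Mrpl39 (adjusted p = 0.170), 0.28 for Mrps6, 0.48 for Atp5j and 0.46 for Atp5o, and none passed.

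Members that departed from the family did so library by library. Rps27l had 4.98, 4.31, 7.04 and 7.21 CPM in 5xFAD-Dp16 replicates 1 to 4, 1.79, 5.96, 7.49 and 11.4 in 5xFAD, 3.99, 3.30, 3.60 and 7.49 in Dp16 and 3.50, 5.32, 5.61 and 6.75 in wild-type. Its lowest and its highest library were both 5xFAD, replicates 1 and 4. Rpl22l1 had 18.6, 17.3, 28.0 and 24.9 CPM in 5xFAD-Dp16, 18.7, 21.2, 22.1 and 43.8 in 5xFAD, 19.6, 19.1, 17.4 and 23.4 in Dp16 and 19.0, 19.9, 16.9 and 37.9 in wild-type, while Rpl22 had 73.8 to 117 over the 16 libraries. In wild-type replicate 4, Rpl22l1 was the highest and Rpl22 the lowest of the wild-type libraries. Rpl29, a large-subunit protein, ranged over 107, 104, 119 and 109 CPM in 5xFAD-Dp16, 109.5, 106, 111 and 130.4 in 5xFAD, 105, 109, 104 and 105 in Dp16 and 120.3, 107, 120.4 and 116 in wild-type, a narrower spread than that of most members. The groups overlapped in all 3 genes.

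In 5xFAD against wild-type the medians of related gene lists were 0.19 for the respiratory chain (68 of 79 positive), 0.12 for mitochondrial ribosomal proteins (65 of 77) and 0.12 for the proteasome (28 of 31). They were 0.095 for elongation factors (5 of 8), 0.064 for initiation factors (20 of 31) and 0.062 for ribosome biogenesis (22 of 36). In Dp16 against wild-type the medians were -0.14 for the respiratory chain (4 of 79 positive), -0.09 for mitochondrial ribosomal proteins (11 of 77) and -0.08 for the proteasome (3 of 31). They were -0.10 for elongation factors (3 of 8), -0.046 for initiation factors (10 of 31) and -0.0028 for ribosome biogenesis (18 of 36), against -0.013 over all tested genes. None of these genes passed the test in either comparison.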

How the data were processed

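Polyadenylated RNA of mouse hippocampus was sequenced in 16 libraries. TRIzol extraction and strand-specific paired-end libraries are stated per the labels' protocols. Per the submitters' processing notes, bcl2fastq, FastQC 0.11.5, HISAT2 2.1.0, SAMtools 1.5, HTSeq 0.6.1 and the build GRCm38 were used. How the counting treated strand is not stated in what was used here. The deposited counts are raw counts per gene, and the deposited RPKM values are the authors' rescaling of them: in all 27505 genes where it could be checked they implied 1 length per gene within a relative tolerance of 1e-06. Of 55385 identifiers, 55144 were in the GRCm38 annotation.

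Counts were tested with edgeR 4.0.16 (limma 3.58.1, R 4.3.3; robust quasi-likelihood test, TMM scaling, low-count filter by genotype) in 1 model of genotype and sex over the 16 libraries, with Benjamini-Hochberg adjustment over 16684 genes and a threshold of 0.05. Log2 CPM used a prior count of 2. DESeq2 1.42.0, library totals, scaling without the family, no filter, no sex term, males only, only the groups compared, a replicate block and leaving out each library were alternatives. The test was tried on simulated data, where, in 5xFAD against wild-type, the test recovered 22.4% of genes set to a 1.5-fold change and 64.2% at a 2-fold change. Of its calls, 6.5% were false. Totals of 15838097 to 25037769 counts limit the precision for low genes, and Wilson intervals cover counting error only. No batch is named in the labels.

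The members and gene lists were chosen with earlier results of these data known. Members were named if among the 6 highest or 4 lowest in RPKM, among the 4 smallest p or the 2 largest folds in each direction of a comparison, paralogue pairs, stalk, X-linked or chromosome 16 genes, genes with known other roles, or the 6 most variable relative to the family. Some genes are not reported here one by one, and the family's counts and medians include them. Promoter sequences are from RefSeq (GRCm38.p6).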

Additional observations from a re-analysis of the deposited data

Results flagged for a closer look

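In 37 of 180 sets of 4 libraries examined, the highest or lowest library stood far from the other 3. For independent sets chosen without regard to their values, chance would give about 1 in 20, or 9.0. The sets here share libraries, and the members were in part chosen by their values in these data. The 9.0 is therefore no yardstick for the 37. Of the 37, 26 were 5xFAD replicate 4 and 10 wild-type replicate 4. In 5xFAD replicate 4 the family's share of counts was 2.65% (1.53 to 1.72% in the other 5xFAD libraries) and its median log2 difference from the wild-type mean was 0.78 (0.040 to 0.13 in the others). The genes that were high in 5xFAD replicate 4 were, in CPM, Rpl37a (171), Rpl24 (40.8), Rps13 (154), Rps12 (364), Rplp0 (349), Rpl7l1 (62.8), Rps10 (79.3) and Rpl14 (357.5). Further ones were Rpl23a (349), Rplp1 (782), Rps15 (549), Rpl13 (446.5), Rps21 (265), Rpl36al (30.1), Rpl10 (257), Rpl22l1 (43.8) and Rpl36a (142). The last were Rpl3 (701), Rplp2 (293), Rpl35a (235.5), Rpl5 (466), Rps19 (185), Rpl10a (205) and Rps25 (339.8).

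In wild-type replicate 4, Rpl22 was low at 76.8 CPM. High there were Rpl37a (125), Rps12 (249.8), Rps24 (494), Rpl23a (301), Rpl36al (25.2), Rpl22l1 (37.9), Rpl3 (548), Rpl11 (302) and Rpl38 (113), all in CPM. Rps27l stood high in Dp16 replicate 4 at 7.49 CPM. The members share their libraries, so these values are not independent of one another.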

How the results depend on the processing

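No member was called in any comparison under the alternatives run, except in 5xFAD against wild-type without the low-count filter, where 3 of 85 were (Rps12, adjusted p = 0.0133; Rps24, 0.0230; Rpl34, 0.0391; edgeR). Of all genes, 398 of 30883 were called in that setting. There Rps12 had 0.49 and Rps24 0.48 (log2). The cause was not tested. The family's median in 5xFAD against wild-type was 0.56 among males only. Leaving out 1 library at a time gave medians of 0.051 to 0.39 in 5xFAD against wild-type, -0.25 to -0.064 in Dp16 against wild-type, -0.065 to 0.11 in 5xFAD-Dp16 against wild-type, -0.35 to 0.044 in 5xFAD-Dp16 against 5xFAD, 0.13 to 0.30 in 5xFAD-Dp16 against Dp16, -0.21 to 0.24 for the interaction and -0.077 to 0.15 between females and males. With only the groups compared, the median in 5xFAD-Dp16 against 5xFAD was -0.43. Among named genes the sign of the log2 value turned for Rps19bp1 in 5xFAD against wild-type (males only 0.17) and in 5xFAD-Dp16 against wild-type (males only 0.051, only the groups compared 0.062), Rpl29 in 5xFAD against wild-type (library totals 0.015; leaving out 1 library -0.075 to 0.0091), Rpl7l1 in 5xFAD-Dp16 against wild-type (males only 0.0055, only the groups compared 0.017), and Rps27l there (leaving out 1 library -0.13 to 0.30). In 5xFAD-Dp16 against 5xFAD it turned for Rps27rt (without the 4 libraries high in midbrain or thalamus genes 0.0097; leaving out 1 library -0.73 to 0.032) and Rpl34 (leaving out 1 library -0.58 to 0.046). In 5xFAD-Dp16 against Dp16 it turned for Rps19bp1 (library totals 0.016, no sex term 0.041; leaving out 1 library -0.13 to 0.018) and Rpl7l1 (library totals 0.041; leaving out 1 library -0.083 to 0.047). Whether replicate numbers pair the libraries was not settled. Of 24 same-numbered pairs, 11 had a correlation over 0.1 (range -0.44 to 0.49), and libraries with different numbers were not compared. With a replicate block the medians were -0.18 in Dp16 against wild-type, 0.25 in 5xFAD against wild-type and 0.027 in 5xFAD-Dp16 against wild-type. They were -0.23 in 5xFAD-Dp16 against 5xFAD, 0.21 in 5xFAD-Dp16 against Dp16, -0.050 for the interaction and -0.029 between females and males. No member was called with the block. In 5xFAD against wild-type 28 members then had an unadjusted p under 0.05 by edgeR (10.9% of all genes), against 8 without the block (8.85%). Low counts limit the precision for Rps27l and Rps27rt, at a few CPM.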
